A study of Mus musculus with 9 samples.

Results

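Iron-dependent dioxygenases are enzymes that bind ferrous iron, use oxygen and 2-oxoglutarate, and hydroxylate or demethylate proteins, DNA, RNA or small molecules. The set examined here held 38 genes fixed by name, in 4 classes: 14 histone demethylases, 9 genes of the Alkbh family, 5 collagen hydroxylases and 10 other dioxygenases. Each gene was read by its brightest probe set that carried its symbol alone, and 37 of the 38 had one among the 18193 genes measured. Phyhd1 shares its probe set with a second symbol and was not analysed here. Of the 37, 3 (Kdm4d, Kdm8 and P4ha3) lay in the dimmest 40% of genes in all groups, where background flattens differences, and none was filtered out.

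The RNA came from epithelial cells of the small intestine and proximal colon of newborn mouse pups (postnatal day 0), and each genotype had 3 arrays. Rescue pups were Tfr1 IEC-KO;ROSA26 Tfr1R654A/+, that is, they had the intestinal epithelial knockout of the transferrin receptor Tfr1 and 1 receptor allele with the R654A change at ROSA26. That change is known to weaken the binding of transferrin strongly. Knockout pups were Tfr1 IEC-KO, and control pups were Tfr1fl/fl, with the floxed receptor gene and no knockout. No pup was treated. The labels name no Cre line and no sex, and do not say whether pups were pooled, so the p-values below measure the spread between arrays. Cells were shaken loose in EDTA and filtered, and the labels name no sort.

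In each catalytic cycle the iron of these enzymes is held by a small cluster of histidine and acidic residues, 2-oxoglutarate is turned into succinate, and ascorbate returns iron that has been oxidised to the ferrous state. Iron taken up through transferrin and its receptor is 1 source of that metal. The family includes the oxygen sensors of the hypoxia-inducible factor (HIF) pathway, erasers of histone methylation, DNA and RNA demethylases, collagen hydroxylases and the first and last enzymes of carnitine synthesis. Arrays measure transcripts, and enzyme activity, protein and iron were not measured.

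All values are log2 values from RMA, a method that corrects, normalizes and summarises the probes of each probe set, and levels are compared only within a gene. The epithelial marker Epcam was bright in every array: it read 13.00 to 13.29 in rescue, 13.17 to 13.55 in knockout and 12.91 to 13.02 in control. Of the 12 enterocyte markers, Krt20 and Cdh1 rose and Cdx1, Cdx2 and Lct fell in knockout against control. Of Tfrc, the gene of Tfr1, 3 probe sets were read. Of these, 2 rose in rescue over knockout by 4.53 and 4.98, and none of the 3 passed between knockout and control (-0.36 to 0.04), so they mark the added receptor and do not check the deletion. Markers of fibroblasts differed among arrays: relative to the control mean, the median of 9 markers stood at 1.39, 0.51 and 0.88 in rescue replicates 1, 2 and 3 and at 4.24, 3.48 and 0.29 in knockout replicates 1, 2 and 3. The summed fibroblast signal on the linear scale was 3300 to 6040 in rescue, 3280 to 28500 in knockout and 2090 to 2840 in control, and 2 of the 9 markers were dim in control. The 9 were Col1a1, Col1a2, Col3a1, Pdgfra, Dcn, Lum, Fbln1, Dpt and Vim, and their mean is the fibroblast covariate used below. Smooth muscle markers gave medians of 0.96, 0.73 and 0.24 in rescue and 4.13, 2.92 and 0.17 in knockout, with 3 of 7 dim in control. Of 8 leukocyte markers Lyz2 and S100a8 rose and Csf1r fell in knockout. Also higher were 3 of 5 mesothelium markers (Lrrn4, Krt19 and Msln), 1 of 6 endothelium markers (Tek) and 1 of 5 neuron and glia markers (Ret). In knockout replicates 1, 2 and 3 the medians relative to the control mean were 1.64, 0.79 and 0.16 for endothelium, 1.71, 0.43 and 0.22 for neurons and glia, 1.11, 2.11 and 0.93 for mesothelium and -0.05, 2.12 and 0.44 for pancreas. Knockout replicate 3, the lowest of the 3 for fibroblast and smooth muscle markers, was thus not at the control level for the median of the mesothelium markers. Those markers include the keratin gene Krt19, and whether they mark mesothelium alone in these cells was not tested. The part of other cell types in the results below was not tested beyond the values given. Rescue arrays also differed in sex-linked transcripts: Xist read 6.45 to 6.83 in rescue, 12.02 to 12.75 in knockout and 12.10 to 12.31 in control, and Y-linked Eif2s3y read 9.36 to 9.70, 2.34 to 2.82 and 2.69 to 2.88 in those groups. Genotype and sex therefore cannot be told apart in either comparison with rescue. Tmlhe was the only X-linked gene among the 37.

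Setting knockout against control addressed which dioxygenase transcripts differ when intestinal epithelium lacks Tfr1. In limma's test, 6 of 37 genes fell and 0 rose (adjusted p under 0.05 over all genes), which is 16.2% of the set beside 14.1% of all 18193 genes called in either direction, 5.29% called higher and 8.77% called lower. The set as a whole was therefore called about as often as any gene, and 10 of the 37 had an unadjusted p under 0.05, beside 30.1% of all genes. All 6 belonged to 2 of the 4 classes, and the difference between classes was not tested. Of the Alkbh family 3 of 9 fell, of the other dioxygenases 3 of 9, of the histone demethylases 0 of 14 and of the collagen hydroxylases 0 of 5. The median change was -0.40 in the Alkbh family, -0.47 in the other dioxygenases, -0.02 in the histone demethylases and 0.17 in the collagen hydroxylases, beside -0.04 over all genes. Knockout and control arrays did not overlap for 11 of the 37 genes (29.7%, 10 of them lower in knockout), beside 32.4% of all genes without overlap in either direction and 19.7% of all genes lower. The plot of changes by class shows the same split.

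**Figure D1:**
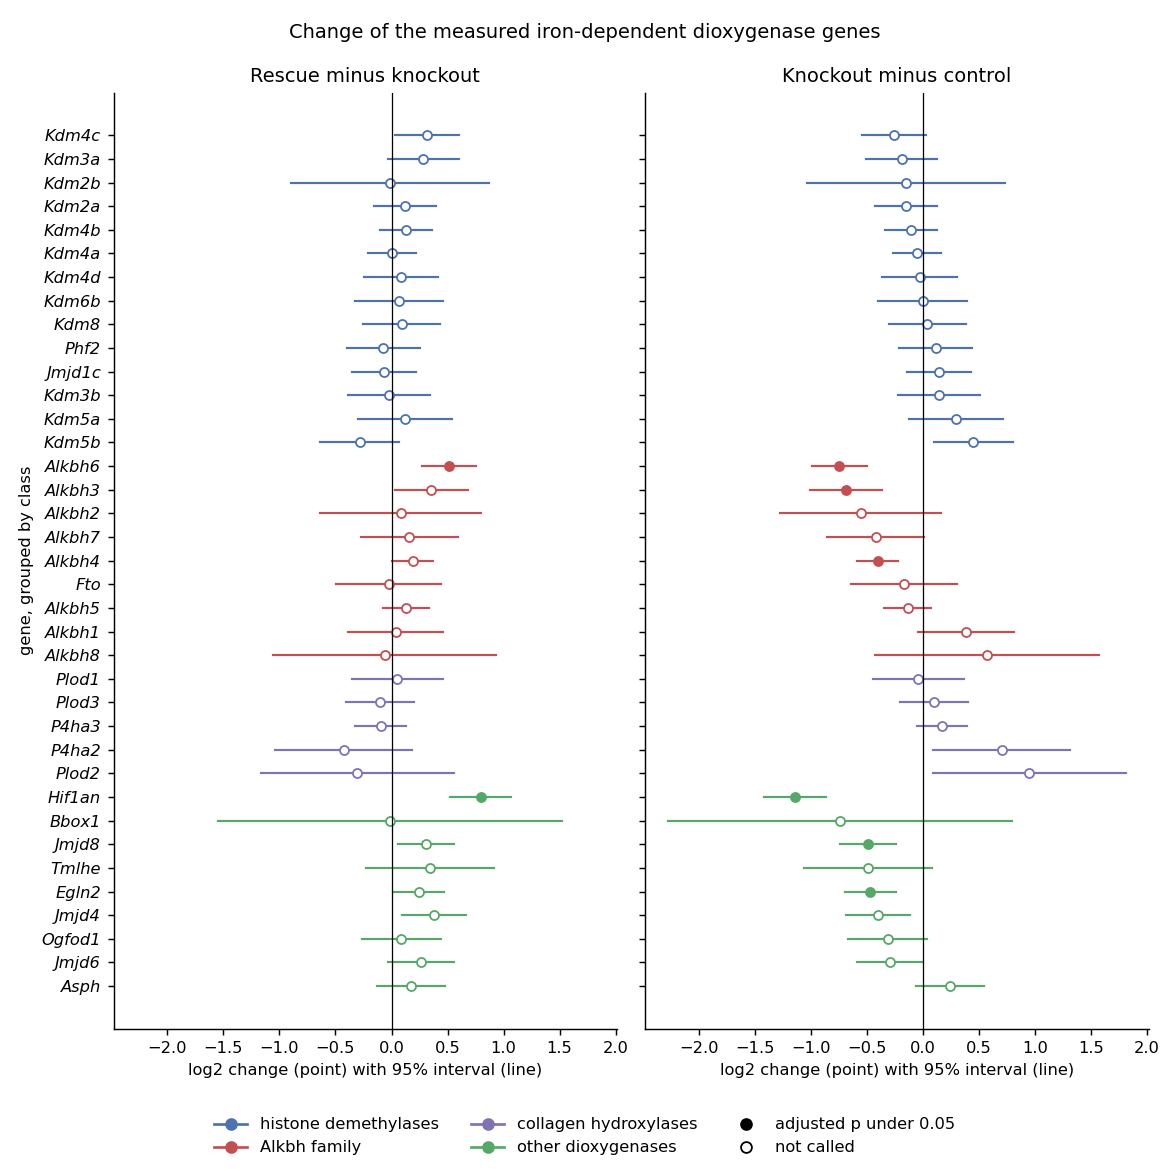
Log2 change of each of the 37 genes (point) with limma's 95% interval (line), rescue minus knockout on the left and knockout minus control on the right, 3 arrays per group. Colours mark the 4 classes, and filled points passed an adjusted p of 0.05. The filled points on the right, 3 in the Alkbh family and 3 in the other dioxygenases, all lie below 0, and those of Hif1an and Alkbh6 on the left lie above 0.

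Among the oxygen sensors, the largest fall was in Hif1an, which encodes the asparagine hydroxylase FIH that blocks the transcriptional activity of HIF alpha subunits. Hif1an read 9.51, 9.51 and 9.37 in rescue arrays, 8.53, 8.59 and 8.86 in knockout arrays, and 9.90, 9.64 and 9.87 in control arrays. The 3 groups did not overlap, and rescue lay between the other two. The fall in knockout against control was -1.14 ± 0.12 (SE; 2.20-fold, adjusted p = 0.0013 by limma). Leaving out any single array kept it past the threshold, with adjusted p up to 0.010. Adding the fibroblast marker mean as a covariate gave -0.92 (adjusted p = 0.0077). Taking knockout replicate 3 alone, the knockout array with the lowest fibroblast signal, to stand for knockout gave -0.94. Fibroblast markers were far higher in knockout replicates 1 and 2 than in replicate 3. The covariate fit therefore leans on replicate 3 too, so here and below these fits are not separate checks. Of the other 2 probe sets of Hif1an, 1 fell by 0.81 (adjusted p = 0.024 over all probe sets) and the dimmest changed by -0.31 (adjusted p = 0.38). These cells are a bulk sample, in which fewer cells of a type and less RNA per cell cannot be told apart.

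Egln2 encodes PHD1, 1 of the prolyl hydroxylases that mark HIF alpha subunits for degradation. It read 9.73, 9.55 and 9.66 in rescue, 9.43, 9.39 and 9.39 in knockout and 10.02, 9.75 and 9.84 in control. The knockout arrays lay close together and below every array of the other groups. The fall against control was -0.47 ± 0.10 (1.38-fold, adjusted p = 0.019). Its call was lost without control replicate 1 (adjusted p = 0.072) or control replicate 3 (0.068). It was also lost on adding the fibroblast covariate, at a change of nearly the same size (-0.48, adjusted p = 0.069). When replicate 3 alone stood for knockout, the change was also -0.48.

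Promoter sequences are shown for Hif1an and Alkbh6, the genes called in both comparisons that involve knockout, for Egln2, and for P4ha2, the collagen prolyl hydroxylase gene described below. They are RefSeq windows of GRCm38.p6, from 250 bases before to 50 bases after the gene start, written 5′ to 3′ along the gene. Capitals mark ACGTG and GCGTG, the core letters of the hypoxia response element bound by HIF, searched on both strands (CACGT and CACGC where the match lies on the other strand).
Hif1an, chr19:44562604-44562903, plus strand: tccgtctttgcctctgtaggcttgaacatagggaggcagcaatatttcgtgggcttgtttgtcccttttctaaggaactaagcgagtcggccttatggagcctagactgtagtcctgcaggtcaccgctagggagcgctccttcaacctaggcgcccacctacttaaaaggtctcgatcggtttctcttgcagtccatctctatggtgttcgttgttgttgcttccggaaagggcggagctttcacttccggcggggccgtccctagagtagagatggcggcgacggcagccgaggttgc
Alkbh6, chr7:30308503-30308802, plus strand: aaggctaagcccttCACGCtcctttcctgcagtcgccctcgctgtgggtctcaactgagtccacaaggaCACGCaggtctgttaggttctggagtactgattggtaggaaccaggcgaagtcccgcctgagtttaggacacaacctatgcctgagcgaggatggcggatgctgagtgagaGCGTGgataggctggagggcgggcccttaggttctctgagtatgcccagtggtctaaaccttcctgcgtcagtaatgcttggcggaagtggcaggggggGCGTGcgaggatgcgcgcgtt
Egln2, chr7:27166753-27167052, minus strand: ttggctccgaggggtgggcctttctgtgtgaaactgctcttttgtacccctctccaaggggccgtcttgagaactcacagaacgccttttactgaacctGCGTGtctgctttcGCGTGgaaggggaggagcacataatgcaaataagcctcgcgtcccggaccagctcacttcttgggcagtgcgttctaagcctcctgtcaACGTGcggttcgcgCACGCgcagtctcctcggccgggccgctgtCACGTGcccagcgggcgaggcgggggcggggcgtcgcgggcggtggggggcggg
P4ha2, chr11:54100674-54100973, plus strand: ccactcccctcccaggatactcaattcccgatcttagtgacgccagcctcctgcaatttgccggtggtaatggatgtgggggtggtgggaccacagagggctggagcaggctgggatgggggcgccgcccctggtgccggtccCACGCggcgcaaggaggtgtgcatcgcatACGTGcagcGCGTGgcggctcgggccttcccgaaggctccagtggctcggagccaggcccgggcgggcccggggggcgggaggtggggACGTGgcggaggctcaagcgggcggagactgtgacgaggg
Hif1an held neither motif. Alkbh6 held 0 ACGTG and 4 GCGTG. Egln2 held 3 of each in the more upstream of its 2 windows, and 2 of its ACGTG matches are the same CACGTG, an E-box, read on both strands. P4ha2 held 2 of each. Of the 29 genes of the set with a window, ACGTG lay in 8 (27.6%) and GCGTG in 17 (58.6%), beside 23.2% and 44.4% of the 14452 measured genes with a window, and 19.6% and 32.5% of all 27025 genes in the table, by the most upstream window of each. A match is a string of letters, and binding was not measured.

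Several enzymes of the Alkbh family remove methyl groups from nucleic acids, or in some cases from proteins, and being listed in the class does not establish that activity for every member. Alkbh6, whose substrates are less well defined, fell most. It read 8.11, 8.20 and 8.03 in rescue, 7.52, 7.61 and 7.67 in knockout and 8.17, 8.43 and 8.45 in control. All knockout arrays were below all others, while rescue and control overlapped. Like Egln2 and Jmjd8, Alkbh6 was read by 1 probe set, so no second probe set checks its change. The change in knockout against control was -0.75 ± 0.11 (1.68-fold, adjusted p = 0.0040), and it passed whichever array was left out (adjusted p up to 0.026). It also passed given the fibroblast covariate (-0.69, adjusted p = 0.027), and it was -0.68 when replicate 3 alone stood for knockout.

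Alkbh3, which repairs alkylated bases in single-stranded DNA and RNA, read 9.11, 9.52 and 9.29 in rescue, 8.94, 9.12 and 8.79 in knockout and 9.63, 9.79 and 9.49 in control. Knockout lay below control with no overlap, and rescue overlapped both. It fell by 0.69 ± 0.14 in knockout against control (1.61-fold, adjusted p = 0.016), a call lost without control replicate 1 (adjusted p = 0.060) or control replicate 2 (0.068). Its second probe set changed by -0.34 (adjusted p = 0.20 over all probe sets).

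Alkbh4, known in other systems to demethylate actin, read 7.67, 7.69 and 7.67 in rescue, 7.51, 7.46 and 7.49 in knockout and 7.95, 7.89 and 7.83 in control. Arrays of 1 genotype lay close together, and the 3 genotypes were fully separated, with rescue in the middle. The change of -0.40 ± 0.08 in knockout against control (1.32-fold, adjusted p = 0.014) was lost without control replicate 1 (adjusted p = 0.063) or control replicate 2 (0.055) and with the fibroblast covariate (-0.39, 0.060). All 3 of its probe sets were lower in knockout, with changes of -0.57 to -0.40, and 2 passed over all probe sets. Both of these end in _x_at, and the third, which ends in _a_at, did not pass (limma adjusted p = 0.0985). Alkbh4 therefore has no probe set left when those ending in _x_at, _s_at or _a_at are left out.

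**Figure D2:**
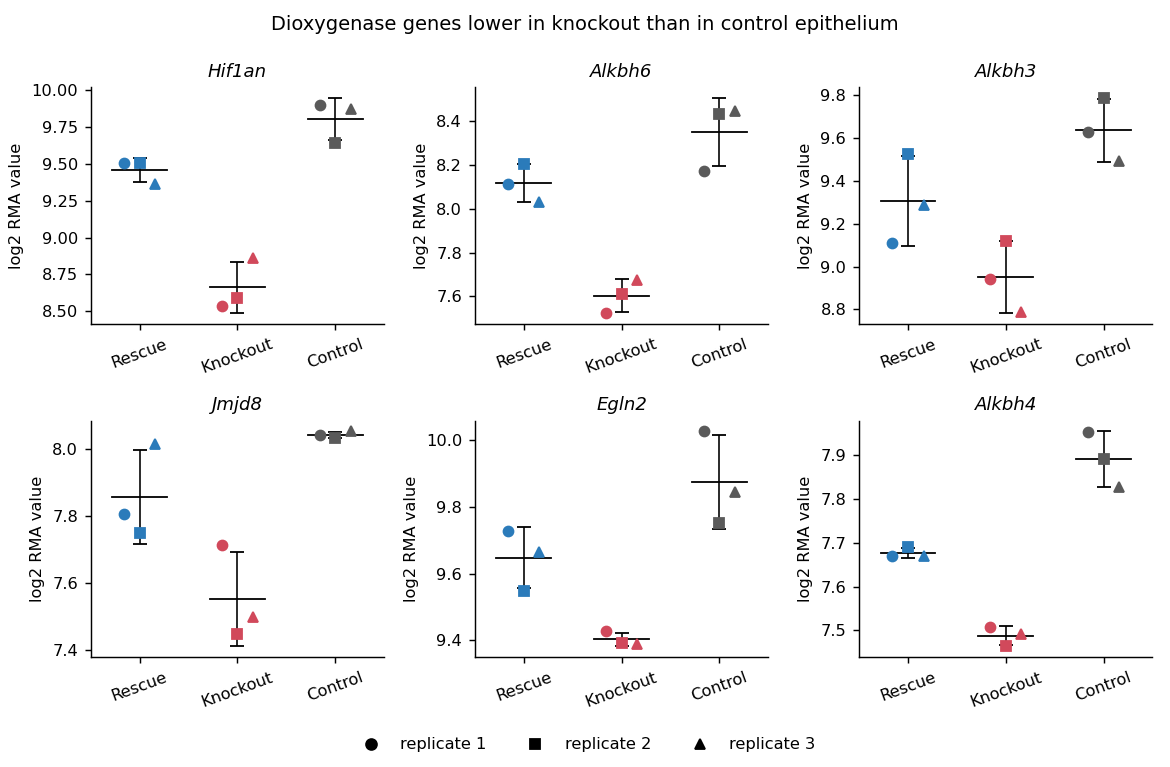
Log2 RMA value of the 6 genes called lower in knockout than in control, in every rescue, knockout and control array. Symbols mark replicates, and the bar and whiskers are the mean and SD of 3 arrays. Knockout arrays lie below all control arrays in each panel, and for Hif1an, Alkbh6, Jmjd8, Egln2 and Alkbh4 below all rescue arrays as well.

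The other 6 genes of the family did not pass. The mRNA demethylases of methylated adenosine, Alkbh5 and Fto, changed by -0.14 (adjusted p = 0.36) and -0.17 (0.65). Fto turned to 0.08 (0.70) without knockout replicate 3 and passed as lower when that array alone stood for knockout (-0.66, 0.047). Alkbh7, whose protein is mitochondrial, changed by -0.42 (0.18) and Alkbh2, which repairs double-stranded DNA, by -0.56 (0.29). Alkbh1 and Alkbh8, both of which act on tRNA, were above control in 2 of 3 knockout arrays. Alkbh8 read 6.97, 6.40 and 6.87 in rescue, 7.58, 7.15 and 5.71 in knockout and 6.11, 6.67 and 5.94 in control, so that knockout replicate 3 was the lowest array of all. Alkbh1 read 8.0015, 7.9088 and 7.9398 in rescue, 8.05, 8.26 and 7.44 in knockout and 7.47, 7.61 and 7.51 in control. Rescue was above control in every array for Alkbh1 (0.42 ± 0.19, adjusted p = 0.76), and knockout replicate 3 lay with control. Without knockout replicate 3 the changes in knockout against control were 0.62 for Alkbh1 (adjusted p = 0.0032) and 1.12 for Alkbh8 (0.014), against 0.38 (0.21) and 0.57 (0.44) with it. Given the fibroblast covariate they were -0.11 (0.71) and -0.70 (0.13).

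Of the other dioxygenases, Jmjd8, a JmjC-domain protein of the endoplasmic reticulum, read 7.81, 7.75 and 8.02 in rescue, 7.71, 7.45 and 7.50 in knockout and 8.04, 8.03 and 8.05 in control. Control arrays were nearly identical and above every other array. It fell by 0.49 ± 0.11 in knockout against control (1.41-fold, adjusted p = 0.021), and the call was lost without control replicate 1 (0.073), 2 (0.071) or 3 (0.082), without knockout replicate 2 (0.059) and with the fibroblast covariate (-0.57, 0.050).

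Jmjd4, which hydroxylates the translation termination factor eRF1, and Jmjd6, which hydroxylates splicing factors, were lower in every knockout array than in every control array, and neither passed. Jmjd4 changed by -0.40 ± 0.13 (adjusted p = 0.066) and Jmjd6 by -0.29 ± 0.13 (0.17). Ogfod1, which hydroxylates a ribosomal protein, changed by -0.31 (0.22). Asph, whose product hydroxylates EGF-like domains and whose locus also encodes products without the catalytic domain, changed by 0.24 (0.27), and its 6 probe sets differed in sign.

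Tmlhe and Bbox1 carry out the first and last steps of carnitine synthesis. Tmlhe changed by -0.49 ± 0.25 (adjusted p = 0.23), and by -0.07 (0.93) given the fibroblast covariate. Bbox1 had the widest spread of the set: it read 8.37, 9.90 and 10.48 in rescue, 8.21, 9.81 and 10.77 in knockout and 10.14, 10.42 and 10.45 in control. Control arrays lay together, while replicate 1 was low and replicate 3 high in both rescue and knockout, and the change in knockout was -0.74 ± 0.67 (adjusted p = 0.52). It was -1.33 (0.16) without knockout replicate 3 and turned to 0.82 (0.51) given the fibroblast covariate.

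Of the collagen hydroxylases, Plod1, Plod2 and Plod3 encode lysyl hydroxylases of collagen, and P4ha2 and P4ha3 encode alpha subunits of collagen prolyl 4-hydroxylase. P4ha2 had the smallest p of the class. It read 6.31, 6.65 and 6.31 in rescue, 6.97, 7.34 and 6.25 in knockout and 5.93, 6.46 and 6.05 in control. Knockout replicates 1 and 2 were above all other arrays, and replicate 3 lay within the control range. The change was 0.70 ± 0.27 (adjusted p = 0.12). Plod2 read 8.42, 7.85 and 7.79 in rescue, 8.86, 8.72 and 7.39 in knockout and 7.10, 7.72 and 7.30 in control, with a change of 0.95 ± 0.38 (adjusted p = 0.13), and again only knockout replicates 1 and 2 were above all other arrays.

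The order of the knockout arrays in Plod2 was that of the fibroblast markers, whose medians are given above. Given the fibroblast covariate, Plod2 changed by -0.16 (adjusted p = 0.68) and P4ha2 by 0.12 (0.85). That covariate includes the collagen genes Col1a1, Col1a2 and Col3a1, so it cannot separate collagen expression from fibroblast content. When replicate 3 alone stood for knockout, Plod2 and P4ha2 changed by 0.01 and 0.10. Without replicate 3 they changed by 1.42 (adjusted p = 0.0035) and 1.01 (0.0071). Plod1, Plod3 and P4ha3 changed by -0.04 to 0.17, with adjusted p between 0.29 and 0.91. Of 16 measured genes of collagen and its processing, 5 rose and 1 fell in knockout against control (37.5%, beside 14.1% of all genes called in either direction), with a median change of 1.87 beside -0.04 over all genes. Among them Col4a1 rose by 2.03 ± 0.46 (4.08-fold, adjusted p = 0.022), and Colgalt1, which adds galactose to hydroxylysine, fell by 0.94 ± 0.20 (1.91-fold, 0.019). Relative to the control mean, the median of these genes stood at 2.83, 2.24 and 0.30 in knockout replicates 1, 2 and 3. The Col4a1 call was lost when replicate 1 or 2 of either control or knockout was left out (adjusted p up to 0.077) and given the fibroblast covariate (1.07, adjusted p up to 0.22). That of Colgalt1 was lost when any control array was left out (up to 0.082).

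**Figure D3:**
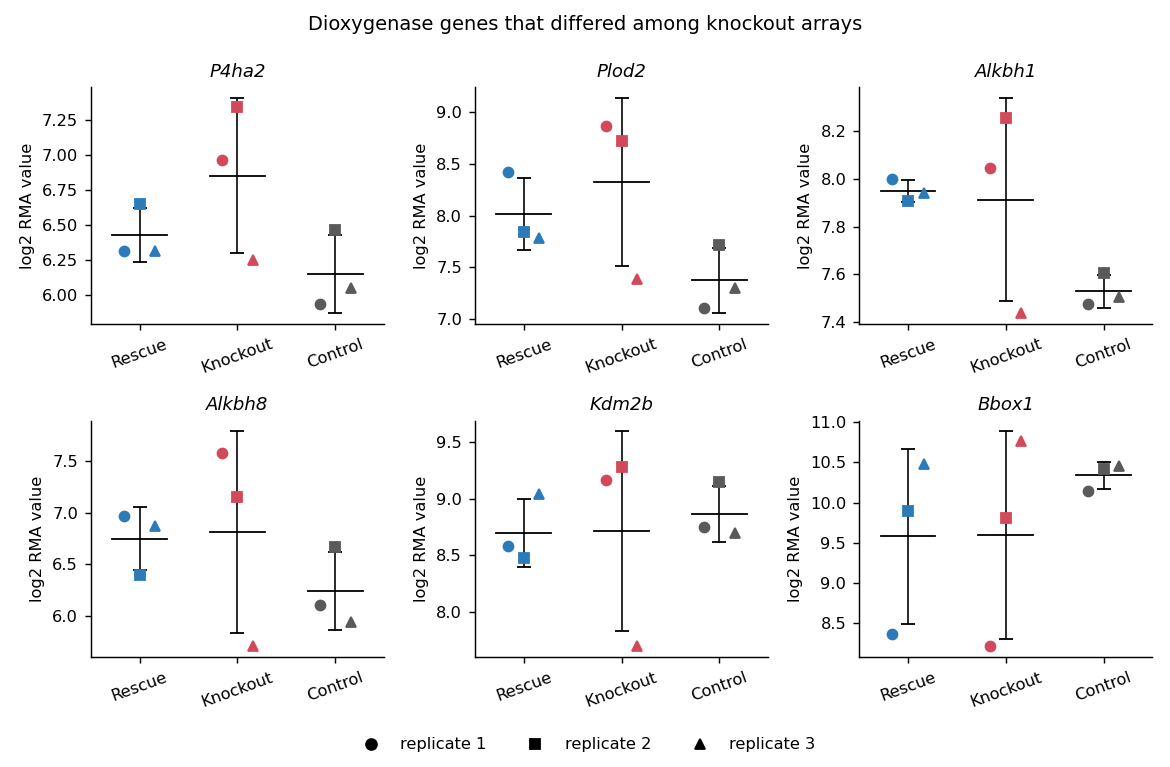
Log2 RMA value in every rescue, knockout and control array of 6 genes of the set with a wide spread among knockout arrays, picked after their values were seen. Symbols mark replicates, and the bar and whiskers are the mean and SD of 3 arrays. Knockout replicate 3 (triangle) lies at or below the control range for all genes shown but P4ha2 and Plod2, where it lies within that range, and Bbox1, where it is the highest array.

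Histone demethylases remove methyl groups from histone lysines: the Kdm5 genes act on the mark of active promoters, Kdm6b on the Polycomb mark, and the Kdm3, Kdm4 and Phf2 genes mainly on marks of silent chromatin. The class was fixed by gene name, and being listed in it does not establish that activity for every member, such as Kdm8 or Jmjd1c. In limma's test 0 of 14 passed between knockout and control, and 1, Kdm5b, had an unadjusted p under 0.05. Kdm5b read 8.32, 8.13 and 8.15 in rescue, 8.81, 8.44 and 8.21 in knockout and 8.13, 8.06 and 7.92 in control. No knockout array overlapped the control arrays. The change was 0.45 ± 0.15 (1.37-fold, adjusted p = 0.087), and without knockout replicate 3 it passed (0.59, adjusted p = 0.015). Given the fibroblast covariate it was 0.12 (0.71). Its 4 probe sets were all higher in knockout, by 0.18 to 0.45.

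Changes of the other 13, Jmjd1c, Kdm2a, Kdm2b, Kdm3a, Kdm3b, Kdm4a, Kdm4b, Kdm4c, Kdm4d, Kdm5a, Kdm6b, Kdm8 and Phf2, lay between -0.26 for Kdm4c and 0.30 for Kdm5a. The tightest was Kdm4a, at -0.05 with a 95% interval of -0.27 to 0.16. Kdm3a, a well-known target of HIF, read 10.28, 9.86 and 10.11 in rescue, 9.75, 9.95 and 9.69 in knockout and 9.81, 10.10 and 10.05 in control. The 3 groups overlapped, and the change was -0.19 (95% interval -0.50 to 0.13, adjusted p = 0.42). Kdm2b read 9.17, 9.28 and 7.70 in knockout replicates 1, 2 and 3, against 8.75, 9.15 and 8.70 in control. Its change was -0.15 ± 0.39 (adjusted p = 0.85), and its sign was positive without knockout replicate 3 (0.36, adjusted p = 0.21). Kdm2b passed as lower given the fibroblast covariate (-1.21, 0.038) and when replicate 3 alone stood for knockout (-1.17, 0.031). Kdm2a and Kdm4c passed as lower without knockout replicate 3 (-0.28, 0.041, and -0.38, 0.033), against -0.15 (0.47) and -0.26 (0.20) with it. Kdm8 passed as higher given the fibroblast covariate (0.45, 0.038), against 0.04 (0.90) without it.

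Of 24 further genes of the family measured, 3 rose and 1 fell in knockout against control, which is 16.7% of them beside 14.1% of all genes. The oxygen sensors did not move the same way: Egln1, which encodes the prolyl hydroxylase PHD2, read 8.81, 8.75 and 8.71 in rescue, 9.23, 9.17 and 9.05 in knockout and 8.66, 8.83 and 8.81 in control. It rose by 0.38 ± 0.09 in knockout (1.30-fold, adjusted p = 0.031), in contrast to Hif1an and Egln2, and all knockout arrays were above all others. This call was lost when any control array, knockout replicate 1 or 2, or rescue replicate 2 was left out (adjusted p up to 0.12). It was also lost with the mean-variance trend, the replicate block, only the 2 groups compared and the fibroblast covariate (0.24). The Egln1 call held in 8 of 19 alternatives, with adjusted p up to 0.22.

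P4ha1, the third alpha subunit gene of collagen prolyl 4-hydroxylase and a HIF target, read 6.59, 6.52 and 6.55 in rescue, 7.40, 7.44 and 6.90 in knockout and 5.89, 5.97 and 6.07 in control. The 3 groups were fully separated. It rose by 1.27 ± 0.15 in knockout, at least 2.42-fold since its control level lay in the dimmest 40% of genes (adjusted p = 0.0017), and passed whichever array was left out (up to 0.012). Kdm7a, a demethylase of repressive histone marks, rose 2.41-fold (1.27 ± 0.19, adjusted p = 0.0044) and also passed whichever array was left out (up to 0.024). Over the 19 alternatives the change went down to 0.79 for P4ha1 and to 0.70 for Kdm7a. Ogfod3, a dioxygenase gene related to Ogfod1, fell by 0.81 ± 0.13 (1.76-fold, adjusted p = 0.0068), and given the fibroblast covariate it changed by -0.54 (0.054).

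In the list of HIF pathway genes, which includes Egln1 and P4ha1, 4 of 20 rose and 0 fell, beside 5.29% of all genes called higher and 14.1% called in either direction. The median change was 0.34, beside -0.04 over all genes. Epas1, the gene of HIF-2 alpha, which regulates iron absorption in the intestine, read 9.44, 9.79 and 9.65 in rescue, 10.98, 10.51 and 10.51 in knockout and 9.07, 9.27 and 9.50 in control. All knockout arrays were above all others. It rose by 1.39 ± 0.17 in knockout against control (2.62-fold, adjusted p = 0.0023), and passed whichever array was left out (up to 0.014). Over the 19 alternatives its change went down to 0.97. The glucose transporter gene Slc2a1 rose 2.48-fold (1.31 ± 0.28, adjusted p = 0.018), a call lost when any control array or knockout replicate 1 or 2 was left out (up to 0.071) and given the fibroblast covariate (0.71, 0.18).

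Both sodium-dependent ascorbate transporters changed in knockout, in opposite directions. Slc23a1, the transporter of absorptive epithelia, read 9.30, 9.47 and 9.74 in rescue, 7.26, 7.05 and 8.55 in knockout and 10.24, 9.61 and 10.26 in control. Every knockout array was below every other array. The fall against control was -2.42 ± 0.37 (5.35-fold, adjusted p = 0.0052). Slc23a2, the more widely expressed transporter, read 8.81, 8.49 and 8.04 in rescue, 9.33, 8.80 and 9.49 in knockout and 7.43, 8.10 and 7.99 in control, and rose by 1.37 ± 0.26 in knockout against control (2.58-fold, adjusted p = 0.012). Both passed whichever array was left out (adjusted p up to 0.030 and 0.048). Given the fibroblast covariate, Slc23a1 changed by -1.41 (0.020) and Slc23a2 by 1.47 (0.049). In the ascorbate list as a whole 2 of 7 rose and 1 fell, beside 14.1% of all genes called in either direction. The 2 that rose were Slc23a2 and Slc2a1, and Slc2a1 is also counted in the HIF list above.

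**Figure D4:**
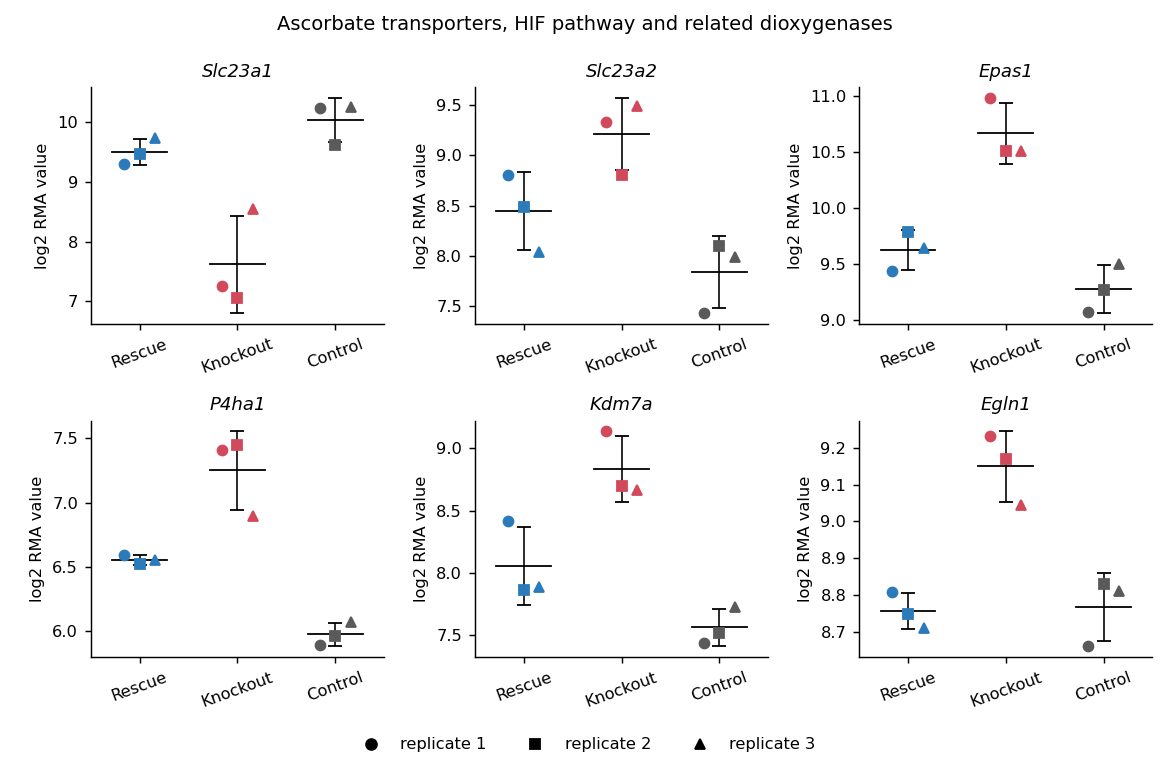
Log2 RMA value in every rescue, knockout and control array of both ascorbate transporters (Slc23a1, Slc23a2), Epas1 of the HIF pathway and the related dioxygenases P4ha1, Kdm7a and Egln1. Symbols mark replicates, and the bar and whiskers are the mean and SD of 3 arrays. Knockout lies below control for Slc23a1 and above it for the other genes, with no overlap of the arrays.

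Of 19 genes of enzymes that make or use 2-oxoglutarate and succinate, 5 fell and 0 rose (26.3%, beside 8.77% of all genes called lower), and 14 did not pass. The median change was -0.34, beside -0.04 over all genes. Sdhb, the iron-sulfur subunit of succinate dehydrogenase, fell by 0.48 ± 0.10 (1.39-fold, adjusted p = 0.014), a call lost without control replicate 2 or 3 (up to 0.065) and given the fibroblast covariate (-0.42, 0.083). Idh3g, a subunit of mitochondrial isocitrate dehydrogenase, fell 1.36-fold (adjusted p = 0.024). The Idh3g call was lost when any control array or knockout replicate 1 was left out (up to 0.095), with the replicate block and given the covariate (-0.44, 0.093). Those of D2hgdh and Idh2, also among the 5, held in only 6 and 7 of 19 alternatives. Of 13 genes of cellular iron supply 1 fell and 0 rose (7.69%, below the 14.1% of all genes called in either direction): Hfe, a partner of the transferrin receptor, fell by 1.15 ± 0.23 (2.21-fold, adjusted p = 0.015), lost without control replicate 1 or 3 (up to 0.066) and given the covariate (-1.09, 0.081). Of 8 other genes of carnitine synthesis and use 2 fell and 0 rose (25%, beside 8.77% of all genes called lower), with a median change of -0.36. Aldh9a1, the dehydrogenase step of carnitine synthesis, fell 1.80-fold (adjusted p = 0.024), a call lost when any control array or knockout replicate 2 was left out (up to 0.086) and given the covariate (-0.36, 0.22).

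Setting rescue against knockout addressed how these transcripts differ once cells without the normal receptor carry the R654A receptor. In limma's test 2 of 37 genes rose and 0 fell, or 5.41% of the set beside 2.31% of all genes (1.23% higher and 1.08% lower). Hif1an rose by 0.80 ± 0.12 (1.74-fold, adjusted p = 0.017) and Alkbh6 by 0.51 ± 0.11 (1.43-fold, adjusted p = 0.0498). Rescue and knockout arrays did not overlap for 6 genes (16.2%), Hif1an, Alkbh6, Alkbh4, Egln2, Jmjd4 and Jmjd8, all higher in rescue, beside 18.1% of all genes without overlap in either direction and 10.6% of all genes higher. The Hif1an call was lost without rescue replicate 1 (adjusted p = 0.060), 2 (0.071) or 3 (0.051) or knockout replicate 2 (0.053), with rescue and knockout fitted alone (0.096) with all its probe sets averaged (0.52, adjusted p = 0.095) and when replicate 3 alone stood for knockout (0.60, 0.055). It passed given the fibroblast covariate (0.66, adjusted p = 0.020). The Alkbh6 call held in 4 of 19 alternatives, and its adjusted p was 0.061 when taken over all probe sets. It was lost when any single array but knockout replicate 3 was left out (adjusted p of 0.063 to 0.15, at changes of 0.47 to 0.56) and given the fibroblast covariate (0.48, 0.066).

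The 4 genes that fell in knockout against control and did not pass between rescue and knockout changed there by 0.36 ± 0.14 for Alkbh3 (adjusted p = 0.23), 0.31 ± 0.11 for Jmjd8 (0.18), 0.24 ± 0.10 for Egln2 (0.24) and 0.19 ± 0.08 for Alkbh4 (0.25). These 2 comparisons share the knockout arrays, so a high or low knockout value moves both. The collagen hydroxylases had 0 of 5 called between rescue and knockout, with P4ha2 at -0.43 ± 0.27 (adjusted p = 0.43). Without knockout replicate 3 P4ha2 passed (-0.73, 0.041), and given the fibroblast covariate it was -0.05 (0.92). The histone demethylases had 0 of 14 called, between -0.28 for Kdm5b and 0.31 for Kdm4c, which passed without knockout replicate 3 (0.43, 0.032). Alkbh1, at 0.04 (0.94), passed when replicate 3 alone stood for knockout (0.51, 0.046). Of the partners, Epas1 fell by 1.04 ± 0.17 (2.06-fold, adjusted p = 0.024) and Slc23a1 rose by 1.88 ± 0.37 (3.69-fold, adjusted p = 0.042). Both calls were lost when any rescue array was left out and with only the 2 groups compared. That of Epas1 was also lost without control replicate 2 (up to 0.089) and with the replicate block. That of Slc23a1 was also lost when any control array or knockout replicate 1 or 2 was left out (up to 0.15) and with quantile normalization. P4ha1 changed by -0.69 ± 0.15 (adjusted p = 0.051) and Egln1 by -0.39 ± 0.09 (0.074).

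Setting rescue against control addressed where cells with the R654A receptor still differ from cells with the floxed receptor gene. In limma's test 0 of 37 genes passed, beside 0.126% of all genes, and 4 had an unadjusted p under 0.05 (beside 6.62% of all genes): Asph, Hif1an, Alkbh4 and Alkbh3. Hif1an changed by -0.34 (95% interval -0.62 to -0.07, adjusted p = 0.54), Alkbh4 by -0.21 (-0.40 to -0.03, 0.60) and Alkbh3 by -0.33 (-0.65 to -0.01, 0.73). Asph read 8.08, 8.13 and 8.30 in rescue against 7.56, 7.96 and 7.74 in control, with no overlap and a change of 0.41 ± 0.13 (adjusted p = 0.49). Its 6 probe sets differed in sign here too: 4 were higher in rescue, and the changes ran from -0.09 to 0.41. Rescue and control did not overlap for 11 of the 37 (29.7%), beside 16.6% of all genes, with 6 higher and 5 lower (6.74% and 9.9% of all genes). Tmlhe, the X-linked gene, changed by -0.15 ± 0.25 in rescue against control (adjusted p = 1.0).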

How the data were processed

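Per the submitters' processing notes, which name RMA and Partek 6.5, the authors deposited log2 values from RMA for each probe set on 9 arrays hybridised with biotin-labelled RNA. What each tool did, and any filter, is not stated in the labels. The 45101 probe sets were used as deposited. Column medians were 5.93 to 6.00, and 0 of 36 pairs of arrays were identical. In GEO's platform annotation 34958 probe sets carried 1 gene symbol, 932 several and 9211 none. The brightest of 34945 single-symbol probe sets that are no array controls represented each of 18193 genes, of which 18031 matched a RefSeq gene by identifier.

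The tests used limma 3.58.1 (R 4.3.3, with the package data.table, version 1.17.8, to read the files): 3 group means were fitted to all 9 arrays, with two-sided moderated tests and Benjamini-Hochberg adjustment over all genes of a comparison at a threshold of 0.05. Errors are limma's standard errors and intervals are unadjusted. A fold is written as a lower bound where the lower mean fell among the dimmest 40% of genes of its group. The procedure was tested on simulated data. The number of arrays limits the precision: the median standard error was 0.147. The members, the gene lists, the classes and the tests were chosen with earlier results of these data known. Named were all genes of the set, with array values for those that passed, for the smallest p of a class with none and for others picked for their values, and from each pathway list at most 4 that passed. Alternatives were another fit, normalization, probe set rule, filter, replicate block, left-out arrays and a fibroblast covariate. No read depth exists for arrays, and replicate numbers were not taken as pairs.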

Additional observations from a re-analysis of the deposited data

How the results depend on the processing

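The count of dioxygenase genes called between knockout and control, 6, ranged from 2 to 13 over the 9 fits without 1 array: 2 without control replicate 1, 3 without control replicate 2 and 13, of which 8 were lower and 5 higher, without knockout replicate 3. It was 18 with array weights (10 lower, 8 higher, beside 35.2% of all genes) and 5 to 7 under the other 9 alternatives. Like counts can hold different genes: the 5 with the fibroblast covariate shared 3 with the 6 and included 1 called higher, and the 7 with knockout replicate 3 alone shared 5. Hif1an and Alkbh6 were past the threshold under all 19 alternatives of that comparison. The count between rescue and knockout, 2, ranged from 0 to 4 over the fits without 1 array, with 4 without knockout replicate 3. It was 0 with only the 2 groups compared and 4 with array weights. It was 1 with the mean-variance trend, the replicate block, quantile normalization, all probe sets averaged, no probe sets ending in _x_at, _s_at or _a_at, the fibroblast covariate, or knockout replicate 3 as the sole knockout array, which is assumed to vary like the other groups. Between rescue and control the count was 0 under every alternative. With the replicate number as a block 7 genes passed between knockout and control. Deviations of same-numbered arrays correlated with r of -0.22 to 0.40 across genes, of both signs, so the numbers were not taken as pairs; whether some arrays share more than a number was not tested. Without 1 control array, fewer of all genes were called between knockout and control (936 to 1212, against 2559). The number was 1629 to 4998 without 1 knockout array and 1962 to 2189 without 1 rescue array. The cause of these differences was not tested.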
